A study of Mus musculus with 2 samples.

Results

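The 32 genes of cholesterol synthesis, uptake and efflux were followed in cultures of wild-type bone marrow cells, 19 enzymes of synthesis, 6 genes of the SREBP system that senses sterol and 7 genes of the LXR system, efflux and storage. They were taken by name for their role in the pathway, and 31 of the 32 had a value. These were read against 13464 genes, all those with an assembled locus of their own and a level of at least 1 TPM (transcripts per 1000000) in at least 1 library. Of the 2 libraries, 1 was made from cells given only M-CSF (M), the factor that keeps macrophage precursors alive. The other was made from cells given M-CSF together with RANKL (MR), the ligand that turns these precursors into osteoclasts. The cells of both were of WT genotype. The dose of M-CSF was 20 ng/mL and that of RANKL 100 ng/mL, and RANKL followed 2 days of M-CSF alone. The labels give 2 further days with both factors and the culture method gives 3, and the day on which RNA was taken is not named. The labels do not give the age or number of mice, and say nothing of pooling. With 1 library per culture the differences have no replicates behind them, no p-value was computed, and each value describes these libraries.

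Cholesterol is built in the cell from acetyl-CoA. The early enzymes lead through mevalonate to farnesyl diphosphate, from which the anchors of prenylated small GTPases are also made, and the late enzymes commit this chain to squalene and close and trim it into cholesterol. When sterol in the endoplasmic reticulum is low, SCAP carries the SREBP factors to the Golgi for cleavage and they switch on the genes of synthesis, while the INSIG proteins hold SCAP back when sterol is plentiful. Oxysterols activate the LXR receptors, which switch on the exporters ABCA1 and ABCG1 and the degradation of lipoprotein receptors. In osteoclasts the pathway is best known through farnesyl diphosphate synthase, the target of the nitrogen-containing bisphosphonates used against bone loss.

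The promoters are shown first, since the factors of this system act there. Of the 32 genes, 27 had a window in the RefSeq table on GRCm38.p6, 250 bases before and 50 bases after each start site. The capitals mark a sterol regulatory element, TCACNCCAC, or a CCAAT box, the letters of the NF-Y site, which reads ATTGG on the other strand. Both strands were searched, and no match of one motif overlapped a match of the other in the members. Hmgcs1 is shown as the one member with the sterol element, Mvd, Insig1 and Srebf2 as genes higher in MR, Mvk as a gene with many CCAAT boxes and nearly the same level in both cultures, and Dhcr7 and Ch25h as the members lower in MR. Each sequence stops before the first annotated exon of its gene.
Hmgcs1, chr13:119690101-119690350, plus strand: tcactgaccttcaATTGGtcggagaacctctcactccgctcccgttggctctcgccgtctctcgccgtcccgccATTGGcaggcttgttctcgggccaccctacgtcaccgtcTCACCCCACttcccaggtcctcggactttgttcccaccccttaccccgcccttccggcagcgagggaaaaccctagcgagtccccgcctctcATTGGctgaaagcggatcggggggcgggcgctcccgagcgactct
Mvd, chr8:122443423-122443672, minus strand: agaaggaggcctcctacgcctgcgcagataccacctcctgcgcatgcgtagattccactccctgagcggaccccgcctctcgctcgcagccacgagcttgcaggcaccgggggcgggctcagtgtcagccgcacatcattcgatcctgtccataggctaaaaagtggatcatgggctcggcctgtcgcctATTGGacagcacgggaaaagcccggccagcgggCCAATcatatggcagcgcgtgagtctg
Mvk, chr5:114444019-114444268, plus strand: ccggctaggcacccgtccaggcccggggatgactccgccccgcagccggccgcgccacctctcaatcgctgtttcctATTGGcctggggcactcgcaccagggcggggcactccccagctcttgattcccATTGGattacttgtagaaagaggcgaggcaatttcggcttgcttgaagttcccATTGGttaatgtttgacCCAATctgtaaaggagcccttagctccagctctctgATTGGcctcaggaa
Insig1, chr5:28071162-28071362, plus strand: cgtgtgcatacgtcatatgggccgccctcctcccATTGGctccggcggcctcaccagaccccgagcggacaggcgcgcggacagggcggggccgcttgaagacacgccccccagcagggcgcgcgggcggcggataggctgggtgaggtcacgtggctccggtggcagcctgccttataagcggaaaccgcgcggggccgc
Srebf2, chr15:82147019-82147180, plus strand: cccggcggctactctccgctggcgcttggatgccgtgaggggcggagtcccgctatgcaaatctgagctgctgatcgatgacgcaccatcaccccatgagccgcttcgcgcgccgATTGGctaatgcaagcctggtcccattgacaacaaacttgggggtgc
Dhcr7, chr7:143822917-143823144, plus strand: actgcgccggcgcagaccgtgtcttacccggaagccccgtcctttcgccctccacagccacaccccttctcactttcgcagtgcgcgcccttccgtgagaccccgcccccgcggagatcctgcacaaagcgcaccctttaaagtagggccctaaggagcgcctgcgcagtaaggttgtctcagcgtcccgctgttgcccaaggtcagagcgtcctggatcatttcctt
Ch25h, chr19:34475165-34475398, minus strand: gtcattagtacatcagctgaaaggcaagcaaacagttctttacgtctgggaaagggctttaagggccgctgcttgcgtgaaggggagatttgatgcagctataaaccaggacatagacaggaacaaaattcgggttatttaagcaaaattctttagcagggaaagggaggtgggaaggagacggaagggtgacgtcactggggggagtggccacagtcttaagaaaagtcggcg

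The sterol element was present in 1 of the 27 members, Hmgcs1, where it began 137 bases before the start site. It was found in 1.41% of the 17491 protein-coding genes of the table. A CCAAT box was present in 21 of the 27 members, against 42.3% of the protein-coding genes. It was found in 15 of 16 synthesis enzymes, all but Acat2, in 4 of 5 genes of the SREBP system, all but Scap, and in Mylip and Soat1 of the 6 genes of the LXR group. For Dhcr7 the box lay in 1 of 3 windows, and that window is not the one shown. The 7 members called higher in MR include 6 with a window, Hmgcs1, Mvd, Idi1, Cyp51, Srebf2 and Insig1, and each had a CCAAT box, but so did Mvk, Ggps1, Ebp and Tm7sf2, whose levels were similar or lower. The LXR element, AGGTCA repeated after 4 bases, was found in 0 members and in 0 of the protein-coding genes, so that this strict form separates no genes here. A match describes letters in a window, and the absence of a match says only that these letters are not in it.

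**Figure D1:**
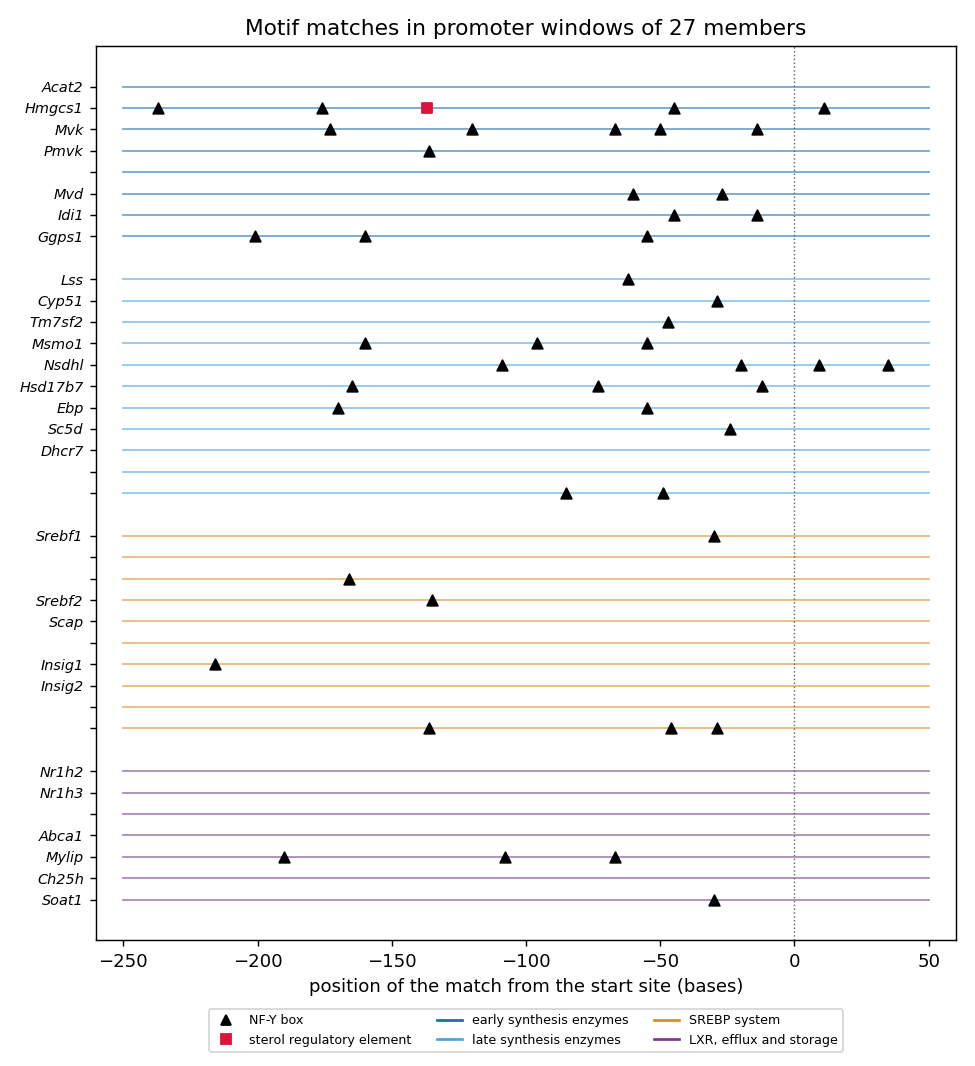
Matches to the CCAAT box (triangles) and the sterol regulatory element (square) in the promoter windows of 27 members, by distance in bases from the annotated start site; each line is 1 window, coloured by role, and unlabelled lines are further windows of the gene above. Triangles lie in 15 of 16 synthesis enzymes and in 2 of 6 genes of the LXR group, and the one square is in Hmgcs1.

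For each gene the ratio of MR to M was taken on the log2 scale after adding 1 to each TPM, and a gene was called higher above 1 and lower below -1, a 2-fold difference at high levels. Of the 31 members, 7 (22.6%) were higher in MR, against 21.2% of all genes, and 2 (6.45%) were lower, against 13.3% of all genes. The share called higher was thus near that of all genes in this setting, and the comparison changed with the setting. With a locus in both libraries required, 7 of 30 members were higher and 1 was lower, against 15.3% and 9.41% of all genes. With FPKM 7 of 31 were higher, against 15.3% of all genes. Scaled by the median of ratios 5 of 31 were higher, against 18.2%. The roles differed in their direction. The median log2 ratio was 0.84 for the 19 enzymes, 0.69 for the SREBP system and -0.54 for the 6 LXR, efflux and storage genes with a value, beside 0.21 for all genes. Of the 19 enzymes 15, and of the SREBP system genes 6 of 6, had a ratio above 0, as did 59.5% of all genes. With coverage per aligned Gb in place of TPM these were 14 of 19 and 4 of 6, since Scap (-1.27), Srebf1 (-0.29) and Mvk (-0.15) were then below 0. All 6 LXR, efflux and storage genes with a value were below 0, as were 40.5% of all genes. Of these Ch25h, also 1 of the 2 members called lower, passed the minimum level only through M. With a locus in both libraries required, 5 of 5 were below 0, with a median of -0.49, beside 0.17 for all genes. The median of all genes depended on scaling and was 0.04 when the libraries were scaled by the median of ratios, a shift of -0.17 that applies to the members as well. In bulk RNA a different number of cells of a type and a different amount of RNA per cell cannot be told apart.

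**Figure D2:**
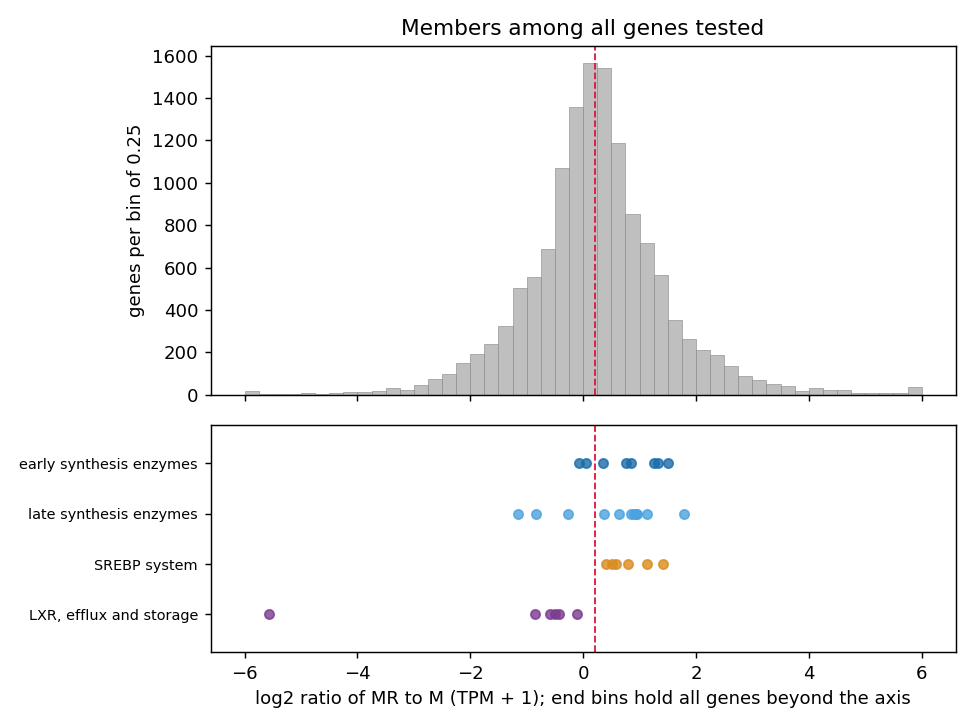
Upper panel, number of genes per bin of the log2 ratio of MR to M for the 13464 genes tested; lower panel, each of the 31 members with a value as a point, by role, with the median of all genes, 0.21, as a dashed line. In this unit the 6 SREBP system genes lie to the right of the line, although Scap (-1.27) and Srebf1 (-0.29) were below 0 for coverage per aligned Gb, and the 6 LXR, efflux and storage genes lie to its left; the far left point is Ch25h, which had no locus in MR and whose position depends on the added 1.

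The cultures carried the markers of their labels. All 6 osteoclast markers were higher in MR, and their summed level was 116 TPM in M and 23668 TPM in MR, with Dcstamp, Oscar and Calcr having no locus in M. Among 5 macrophage markers, Adgre1, Mertk and Fcgr1 were lower in MR and Csf1r and Cd68 were within the limits, with a sum of 5251 TPM in M and 3267 TPM in MR. The 7 neutrophil markers were all within the limits, with a sum of 1285 TPM in M and 899.9 TPM in MR. The 4 lymphoid markers summed to 7.46 and 7.04 TPM and the 5 stromal markers to 22.3 and 36.2 TPM. Of these Ms4a1 (-1.01) and Cxcl12 (-1.47, with no locus in MR) were lower and Col3a1 (1.46) was higher on the log2 scale. Cd3e had no locus in either library. The part of these other cells in the differences below was not tested.

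The enzymes that make mevalonate and turn it into isoprenoids are the 8 early genes. Together they stood at 127 TPM in M and 240 TPM in MR, 1.89-fold higher. Of the 8, 3 (37.5%) were called higher and 0 lower, against 21.2% and 13.3% of all genes. Hmgcs1, the cytosolic HMG-CoA synthase, is on the plus strand of chr13:119690379-119708260 (GRCm38). Its level was 21.4 TPM in M against 62.6 TPM in MR, 2.92-fold higher in MR. The log2 ratio was 1.50, with a 95% interval from 1.34 to 1.67. These intervals come from the approximate number of read pairs, about 389 in M and 898 in MR for this gene, and cover counting error only, not the spread that repeated cultures would show.

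Mvd, which decarboxylates mevalonate diphosphate to isopentenyl diphosphate, stood at 9.59 TPM in M and 24.3 TPM in MR, a log2 ratio of 1.26 (interval 0.92 to 1.60). Idi1, which isomerises isopentenyl diphosphate, stood at 7.22 and 19.7 TPM, a log2 ratio of 1.33 (interval 1.05 to 1.62). Both were therefore past the limit by their value, and for Mvd the interval reached below it. The kinases that act between them and Hmgcs1 had smaller ratios. Pmvk, phosphomevalonate kinase, stood at 18.8 TPM in M and 32.5 TPM in MR, a log2 ratio of 0.76 (interval 0.32 to 1.21). Mvk, mevalonate kinase, stood at 16.2 and 16.9 TPM, a log2 ratio of 0.06 (interval -0.36 to 0.48). The sign of Mvk changed with the unit and scaling, down to -0.15 for coverage per aligned Gb, so that no direction was given.

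Fdps, farnesyl diphosphate synthase, was the most abundant early enzyme in both libraries, at 34.8 TPM in M and 63.1 TPM in MR. Its log2 ratio was 0.84 (interval 0.61 to 1.08), below the limit, and 1.07 when coverage per aligned Gb was used. Ggps1, which lengthens farnesyl to geranylgeranyl diphosphate for the prenylation of small GTPases, stood at 11.3 TPM in M and 10.6 TPM in MR. Its log2 ratio was -0.08 (interval -0.74 to 0.56), which rests on about 42 and 31 read pairs. These were counted on a shortest coding transcript of 667 bases, and the loci covered 4557 and 4477 exon bases. The interval may thus be too wide. Acat2, the cytosolic acetoacetyl-CoA thiolase that opens the pathway, stood at 8.10 and 10.6 TPM, a log2 ratio of 0.35 (interval -0.06 to 0.76). For Acat2, whose near relative Acat3 lies beside it, reads shared between the copies could not be told apart. Within the early steps the differences were thus unequal, from near 0 for Mvk and Ggps1 to 1.50 for Hmgcs1.

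**Figure D3:**
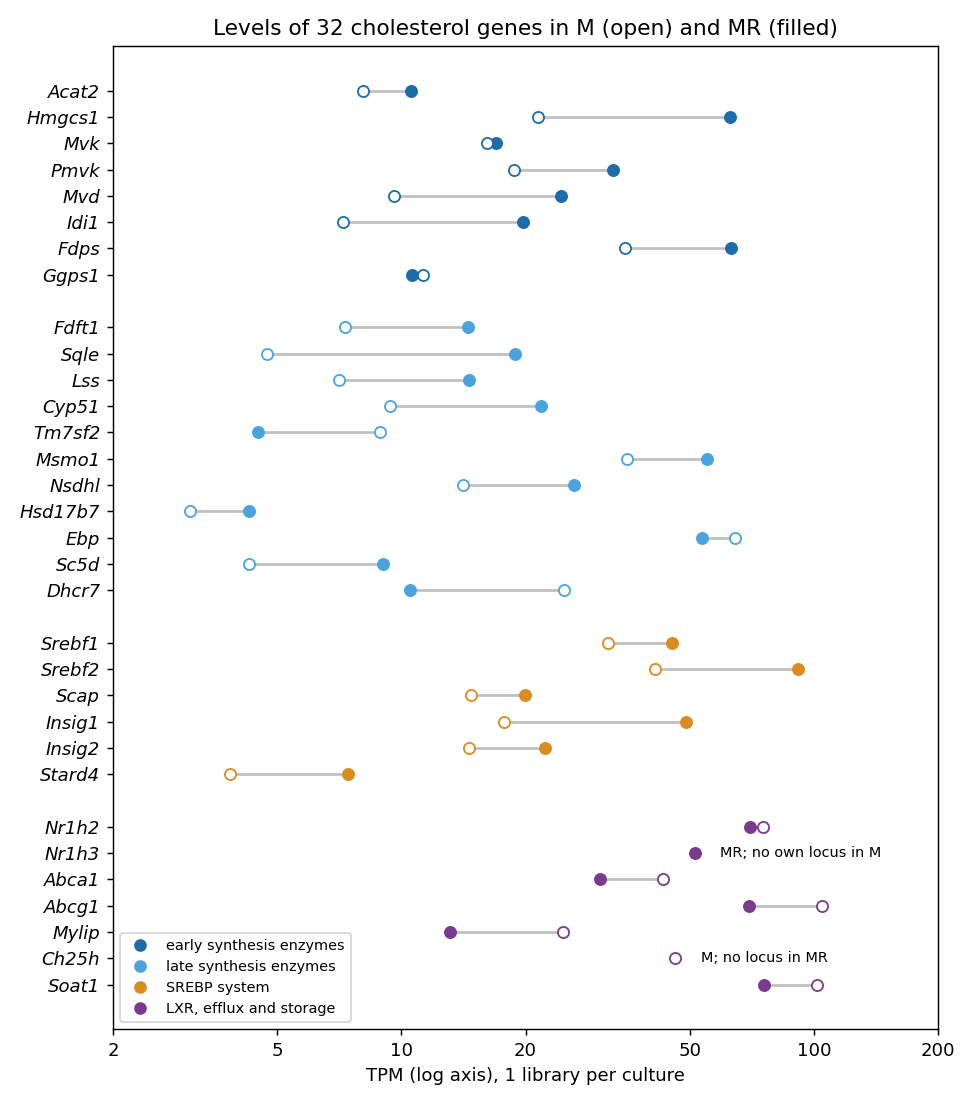
TPM on a log axis of the 32 members in M (open circles) and MR (filled circles), 1 library each, coloured by role and joined by a line for each gene. Most synthesis enzymes and the SREBP system genes have the filled circle to the right in TPM (for coverage per aligned Gb the log2 ratios of Scap, -1.27, and Srebf1, -0.29, were below 0), whereas Ggps1, Tm7sf2, Ebp, Dhcr7 and the LXR, efflux and storage genes measured in both libraries have it to the left.

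The 11 late enzymes, from squalene to cholesterol, summed to 183 TPM in M and 233 TPM in MR, 1.27-fold higher. Of these, 8 (72.7%) had a ratio above 0, against 59.5% of all genes, and 3 were below. In all 2 (18.2%) were called higher and 1 (9.09%) lower, against 21.2% and 13.3% of all genes. Sqle, squalene epoxidase, a rate-limiting oxygenase of the pathway, had the highest log2 ratio of the 31 members. It lies on the plus strand of chr15:59315077-59331192 (GRCm38) and stood at 4.74 TPM in M and 18.8 TPM in MR, 3.98-fold higher in MR. The log2 ratio was 1.79 (interval 1.45 to 2.13), above the ratios of 91.2% of all genes. Cyp51, lanosterol 14-alpha-demethylase, stood at 9.37 TPM in M and 21.8 TPM in MR, a log2 ratio of 1.14 (interval 0.91 to 1.37). Its call was lost with a log2 ratio of 0.97 by the median of ratios.

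A group of 4 late enzymes stood just below the limit. Fdft1, squalene synthase, which draws farnesyl diphosphate into the sterol branch, stood at 7.29 TPM in M and 14.5 TPM in MR, a log2 ratio of 0.91 (interval 0.60 to 1.22). Lss, which closes the sterol rings as lanosterol synthase, stood at 7.07 and 14.6 TPM, a log2 ratio of 0.95 (interval 0.71 to 1.20). The listed coverage of Lss differed less, with a log2 ratio of 0.52 per aligned Gb. In MR it was 12.7, whereas the FPKM of Lss corresponds to 19.4. Sc5d, lathosterol oxidase, stood at 4.26 and 9.02 TPM, a log2 ratio of 0.93 (interval 0.43 to 1.43). Nsdhl, a sterol dehydrogenase of C4 demethylation, stood at 14.1 and 26.2 TPM, a log2 ratio of 0.85 (interval 0.58 to 1.12). Each of these 4 intervals held the limit of 1, so that counting error alone leaves their side of it undecided.

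Msmo1, the C4 methylsterol oxidase that works with Nsdhl, was among the more abundant, at 35.2 TPM in M and 55.0 TPM in MR, a log2 ratio of 0.63 (interval 0.44 to 0.82). Hsd17b7, the ketoreductase of the same C4 demethylation, was the lowest of the enzymes with 3.07 TPM in M and 4.27 TPM in MR. Its log2 ratio was 0.37 (interval -0.28 to 1.02). The Hsd17b7 locus covered 1060 exon bases in M against 5043 in MR, so that its TPM describes transcripts of different extent.

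The remaining 3 late enzymes were below 0, against the direction of the others. Dhcr7, which reduces 7-dehydrocholesterol to cholesterol in the last step of one branch, is on the plus strand of chr7:143823145-143848410 (GRCm38). It stood at 24.7 TPM in M and 10.5 TPM in MR, 2.35-fold higher in M. The log2 ratio was -1.16 (interval -1.52 to -0.81), and -0.95 per aligned Gb of coverage. Tm7sf2, a C14 sterol reductase that acts right after Cyp51, stood at 8.87 and 4.50 TPM, a log2 ratio of -0.84 (interval -1.65 to -0.05), from about 36 and 14 read pairs. These were counted on a shortest coding transcript of 718 bases and may be too few. Ebp, the sterol isomerase, was the most abundant of the 19 enzymes in M, at 64.5 TPM there and 53.7 TPM in MR, a log2 ratio of -0.26 (interval -0.44 to -0.08). Ebp, Tm7sf2 and Dhcr7 were thus the enzymes with a counting interval wholly below 0.

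**Figure D4:**
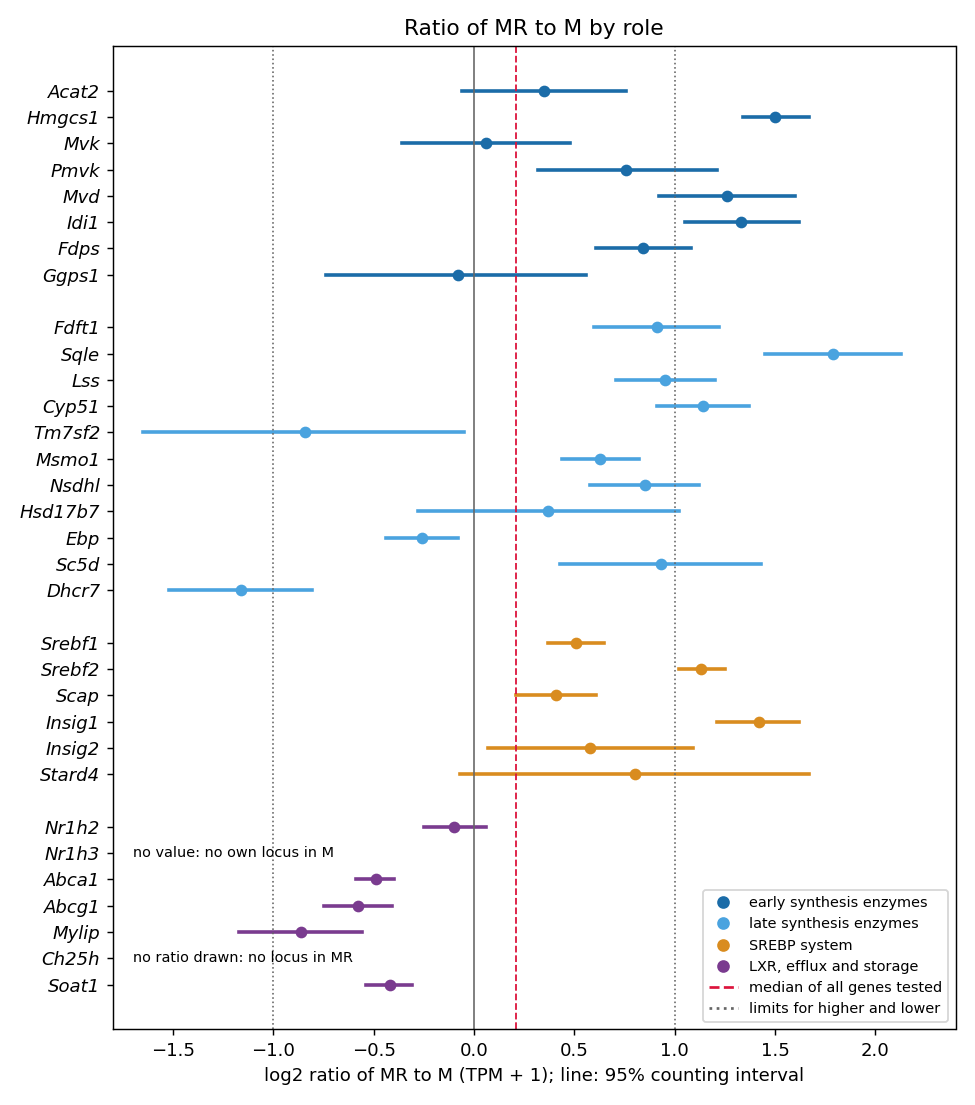
Log2 ratio of MR to M of each member by role, with its 95% counting interval as a line, the limits of 1 and -1 dotted and the median of all genes, 0.21, dashed. Of the 30 members drawn, 17 have an interval above 0, 7 below 0 and 6 across it. The 17 include Scap and Srebf1, whose log2 ratios were below 0 for coverage per aligned Gb (-1.27 and -0.29). Nr1h3 and Ch25h have no ratio drawn.

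The 6 genes of the SREBP system summed to 124 TPM in M and 236 TPM in MR, 1.91-fold higher. Of these 2 (33.3%) were called higher, Srebf2 and Insig1, against 21.2% of all genes, and the other 4 were within the limits. Srebf2 encodes SREBP-2, the SREBP that acts chiefly on cholesterol synthesis, on the plus strand of chr15:82147181-82205379 (GRCm38). It stood at 41.2 TPM in M and 91.7 TPM in MR, 2.22-fold higher in MR and the highest level of any member there. The log2 ratio was 1.13 (interval 1.02 to 1.25), and 0.95 by the median of ratios, below the limit. Insig1, an ER anchor of SCAP and itself a well-known SREBP target, stood at 17.8 and 49.1 TPM, 2.76-fold higher in MR, a log2 ratio of 1.42 (interval 1.21 to 1.62). Insig2, its relative, stood at 14.6 and 22.4 TPM, a log2 ratio of 0.58 (interval 0.07 to 1.09).

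Srebf1, which encodes the SREBP-1 forms that act chiefly on fatty acid synthesis, stood at 31.6 TPM in M and 45.4 TPM in MR, a log2 ratio of 0.51 (interval 0.37 to 0.65). In M it was assembled as 3 loci, of which the one with most exon bases had 25.3 TPM, and in MR as 1 locus. With this locus alone the log2 ratio was 0.82, and with coverage per aligned Gb it was -0.29. The listed coverage of Srebf1 in MR was 32.1, whereas its FPKM corresponds to 60.1. The 5′ end of the MR locus, at position 60222879 of chr11, lay beyond the annotated 5′ end of the gene, and that of the main M locus at 60221087 lay 1494 bases inside it. A separate M locus from 60221615 to 60222756, with 2.28 TPM, lay over the first exon. The tables do not give levels by isoform, so that the SREBP-1 forms were not separated.

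Scap, the SREBP escort, stood at 14.7 TPM in M and 19.9 TPM in MR, a log2 ratio of 0.41 (interval 0.21 to 0.61). Its listed coverage went the other way, 18.1 in M against 4.42 in MR, a log2 ratio of -1.27 per aligned Gb. The FPKM of Scap in MR corresponds to a coverage of 26.4, so that the listed columns do not match for this gene, and no direction was given. Other members had a smaller mismatch, among them Srebf2 in MR, with a listed coverage of 92.4 against 121.6. Stard4, a soluble sterol carrier and SREBP-2 target, stood at 3.84 and 7.45 TPM, a log2 ratio of 0.80 (interval -0.07 to 1.67). It rests on about 14 and 21 read pairs, counted on a shortest coding transcript of 648 bases. The Stard4 locus covered more than this, 2450 exon bases in M and 5566 in MR, so that the interval may be too wide. With loci of such unequal length, its TPM describes transcripts of different extent. Srebf2, Insig1 and Insig2 were above 0 in every unit and scaling tried, as was Stard4, whereas Srebf1 and Scap were not.

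Those LXR, efflux and storage genes that had a value were together more abundant in M, whereas for Nr1h3, described below, no direction could be given. The 6 genes with a value in this group summed to 395 TPM in M and 259 TPM in MR, 1.53-fold higher in M. The M sum includes 46.2 TPM of Ch25h, which had no locus in MR and passed the minimum level only through M. Abcg1, which exports cholesterol to HDL, lies on the plus strand of chr17:31057675-31117988 (GRCm38) and had the highest level of any member in M, 104 TPM, and 69.4 TPM in MR. The log2 ratio was -0.58 (interval -0.75 to -0.41). Abca1, which loads cholesterol onto lipid-poor apolipoprotein A-I, stood at 43.1 and 30.4 TPM, a log2 ratio of -0.49 (interval -0.59 to -0.40). Soat1, the ER enzyme that esterifies cholesterol for storage in droplets, stood at 102 and 75.8 TPM, a log2 ratio of -0.42 (interval -0.54 to -0.31). None of these 3 passed the limit of -1, and their intervals were below 0. The Soat1 locus of MR ended 4098 bases short of the annotated 3′ end and covered 5614 exon bases, against 9682 in M. The TPM of Soat1 thus describes transcripts of different extent.

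Mylip, the ubiquitin ligase also known as Idol that marks lipoprotein receptors for degradation, stood at 24.7 TPM in M and 13.1 TPM in MR. The log2 ratio was -0.86 (interval -1.17 to -0.56), and -1.04 by the median of ratios, past the limit. Nr1h2, which encodes LXR-beta, stood at 75.0 and 70.1 TPM, a log2 ratio of -0.10 (interval -0.25 to 0.06), so that its counting interval held 0. Nr1h3, which encodes LXR-alpha, had no value in M, since its exons lay inside the locus assembled for its neighbour Madd, of 55.0 TPM. In MR the genes were apart, with 51.4 TPM for Nr1h3 and 23.7 TPM for Madd. Both loci of MR together had 75.1 TPM, which is not the same measure as the 55.0 TPM of the joint locus in M. How much of that joint locus was Nr1h3 is not given.

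Ch25h makes 25-hydroxycholesterol, an oxysterol that activates LXR and blocks SREBP processing through INSIG. The gene has a single exon, on the minus strand of chr19:34473778-34475164 (GRCm38). In M its locus had 46.2 TPM, a level between those of Ebp and Abca1, and corresponds to about 358 read pairs. In MR no locus was assembled for it, so that it is listed at 0 there and no fold is given. The log2 ratio of -5.56 behind its call as lower depends on the added 1, and reads too few for assembly would not be seen. The M locus carried no strand, as is usual for unspliced loci, so that reads of either strand could have entered it. The one entry with a gene name placed over this position, whose coordinates follow another build, had 13.6 TPM in M and 3.46 TPM in MR, so that some reads were counted at that entry in both libraries.

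**Figure D5:**
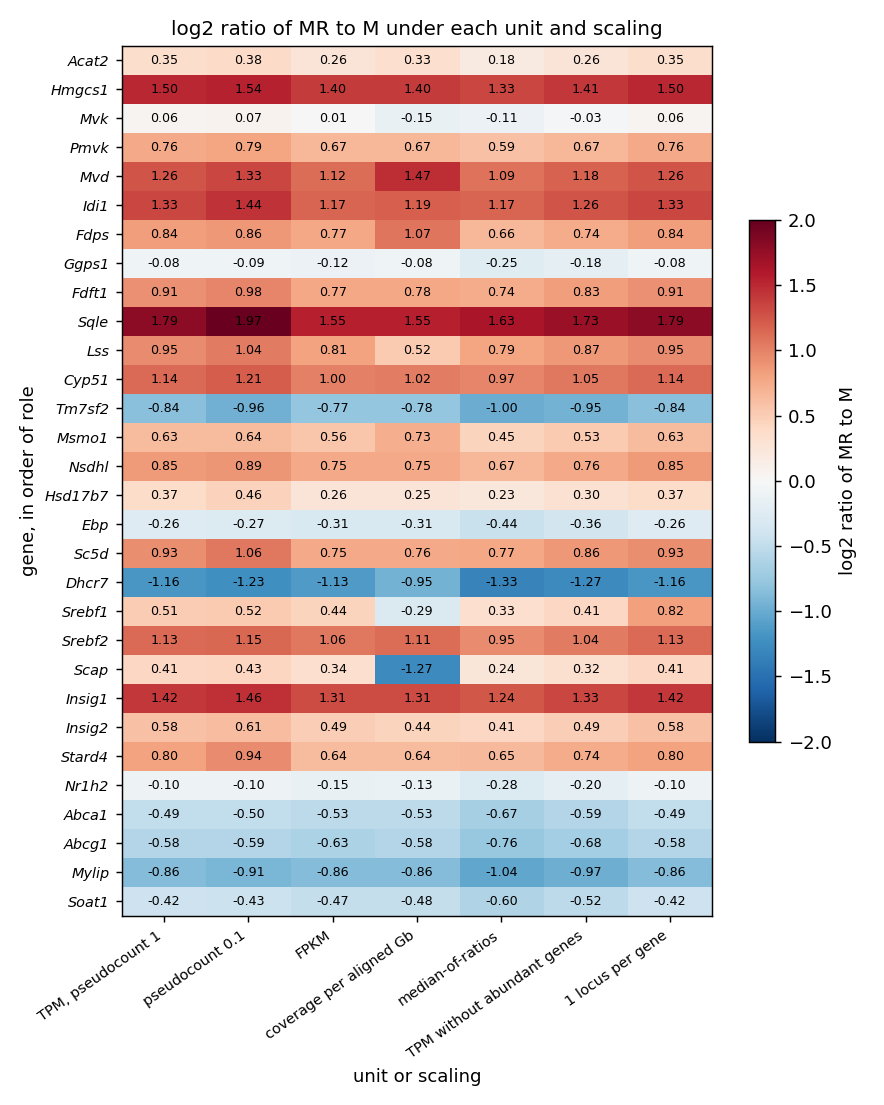
Log2 ratio of MR to M of 30 members under the main setting (first column) and 6 other units and scalings, in order of role, coloured from -2 (blue) to 2 (red) with the value printed. Hmgcs1, Mvd, Idi1, Sqle and Insig1 stay above 1 in each column, and Srebf1, Scap and Mvk change sign.

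The order of levels changed between the cultures. In M the 3 most abundant members were Abcg1, Soat1 and Nr1h2, at 104, 102 and 75.0 TPM, all of the LXR, efflux and storage group. In MR the first was Srebf2 at 91.7 TPM, followed by Soat1, Nr1h2 and Abcg1 at 75.8, 70.1 and 69.4 TPM. Hmgcs1 went from place 13 of 31 in M to place 6 of 32 in MR. Nr1h3, with no value in M, was placed only in MR, and its place in M is unknown. The lowest level with a locus in both libraries was that of Hsd17b7. With 1 library per culture no spread is known, so that neighbours in this order are not shown to differ. The sum over the 19 enzymes was 311 TPM in M and 473 TPM in MR, 1.52-fold higher in MR.

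Genes next to the pathway were read from lists of related functions. Of 11 genes of fatty acid synthesis, which SREBP-1 also serves, 3 were higher and 1 was lower in MR, and the median log2 ratio was 0.49, beside 0.21 for all genes. Among all genes 21.2% were higher and 13.3% lower. The highest ratio was that of Scd2, a stearoyl-CoA desaturase, from 7.93 TPM in M to 94.8 TPM in MR, a log2 ratio of 3.42. It was followed by fatty acid synthase, Fasn, and the malic enzyme Me1, both at 1.01. These calls were barely past the limit of 1, and other scalings were not read for the related lists. Fads1, a fatty acid desaturase, went the other way, from 25.8 to 4.22 TPM, a log2 ratio of -2.36, and the next lowest, its relative Fads2, stood at -0.05. Of the desaturases listed, Scd2 was thus higher and Fads1 lower, while Scd1 (-0.02) and Fads2 were near 0.

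Of 14 genes that use the isoprenoids of the early steps, for prenylation, dolichol or ubiquinone, 1 was higher and 0 were lower in MR, against 21.2% and 13.3% of all genes, and the median log2 ratio was 0.12, below that of all genes. The gene called higher was Nus1, a subunit of the dolichol chain-making enzyme, at 43.4 TPM in M and 116 TPM in MR, a log2 ratio of 1.40. Next was Rabggtb, the beta subunit of the Rab prenylating enzyme, at 0.87, while its partner Rabggta stood at -0.37. The lowest was Coq2, of ubiquinone synthesis, at -0.79.

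Of 12 genes of sterol transport and lysosomal release, 4 were higher and 3 were lower in MR, against 21.2% and 13.3% of all genes, and the median log2 ratio was -0.29. Npc2, which carries cholesterol inside the lysosome, stood at 1443 TPM in M and 3502 TPM in MR, a log2 ratio of 1.28. Lipa, the lysosomal acid lipase that frees cholesterol from the esters of lipoproteins, stood at 1092 and 271 TPM, a log2 ratio of -2.01. Vldlr, a lipoprotein receptor, is counted as higher with no locus in M and 7.27 TPM in MR, so that only MR brought it past the filter. Gramd1b, which moves accessible cholesterol from the plasma membrane to the ER, stood at 34.4 and 10.4 TPM, a log2 ratio of -1.63. The genes of this list did not share a direction. Other genes of uptake and synthesis were not analysed here.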

How the data were processed

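RNA of 1 library per culture was sequenced as paired reads of 150 bases. Per the labels and methods, the authors trimmed reads with Trim Galore, aligned them to mm10 with HISAT2 and ran StringTie with GENCODE vM27. The deposited tables list coverage (a signal of read depth per base, not scaled for library size), FPKM and TPM. The authors scaled TPM so that assembled loci alone sum to 1000000, and these entries alone were used, since the entries with gene names follow vM27 positions, which are on GRCm39. Each locus was given to the GENCODE vM21 gene whose exons it covered by the most bases (50 or more) on its strand, and TPM was summed per gene. Loci given to genes held 95.4% of TPM in M and 96.9% in MR.

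Read counts are not listed. Aligned bases, from the commonest ratio of coverage to FPKM, were 3.63 Gb in M and 2.98 Gb in MR. This ratio held for 39.1% of loci with an FPKM above 5 in M and 42.5% in MR. The read pairs, intervals and coverage per aligned Gb rest on it. Read pairs were FPKM times aligned Gb times the shortest coding transcript, over 300 bases a pair, and the 95% counting intervals are exact Clopper-Pearson intervals. Where longer transcripts were present, these counts are too low and the intervals too wide. Where a locus covered fewer exon bases than this transcript, the counts may be too high and the intervals too narrow. An example is Hsd17b7 in M, with 1060 exon bases against a transcript of 1446. The same may hold for Srebf1 in M, where the FPKM of 3 loci was summed. A pseudocount of 1 and a minimum TPM of 1 in at least 1 library were used. The members and lists, and the promoters to print, were chosen with earlier results of these data known. All 32 members are described by role, and of each related list the 2 highest and 2 lowest ratios. A further marker list is not reported here. The code was tested on simulated data. The alternatives tried were FPKM, coverage per aligned Gb, a pseudocount of 0.1, a minimum TPM of 10 or none, other scalings, 1 locus per gene, own loci only, loci in both libraries and a log2 limit of 2. Scripts ran in Python 3.11.15 (scipy 1.17.1, pandas 2.3.3, matplotlib 3.10.9, numpy 2.4.6).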

Additional observations from a re-analysis of the deposited data

How the results depend on the processing

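With a log2 limit of 2 in place of 1, 0 members were higher in MR and 1, Ch25h, was lower. When a locus in both libraries was required, 1 member, Dhcr7, was lower. Of the 62 results on counts and medians under the alternatives, 59 kept within 1.5 times the count or within the spread of the median and 3 moved, those just given. Own loci only and no minimum TPM left every member value unchanged, so that results under them could not move. For the SREBP system and the LXR group the spread was the full range of the genes, from 0.41 to 1.42 and from -5.56 to -0.10. The 59 are therefore no measure of robustness. For the 30 members with a counting interval, 167 of 180 values under the alternatives lay inside it and 13 outside, 8 of them under median-of-ratios scaling and 3 with coverage per aligned Gb. Ch25h, which has no such interval, went from -5.56 to -8.85 with a pseudocount of 0.1. The 5 members higher under median-of-ratios scaling were Hmgcs1, Mvd, Idi1, Sqle and Insig1. No paired analysis was possible because each culture had 1 library, and for the same reason no library could be left out. Depth limits the low genes most, with about 14 read pairs given in M for Stard4 and in MR for Tm7sf2. These were counted on shortest coding transcripts of 648 and 718 bases, whereas the loci covered 2450 and 3797 exon bases. Both counts may thus be too low. Reads from near-identical processed copies of these enzymes may have been split by the authors' counting, which was not tested.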
